A study of Rosa hybrid cultivar with 39 samples.

Results

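Among 30208 gene identifiers measured in rose petals, 111 had an average expression at least 2-fold above water in both synthetic auxin treatments, 1-naphthaleneacetic acid (NAA) and 2,4-dichlorophenoxyacetic acid (2,4-D). The genes were chosen by these 2 ratios alone. The FPKM values of all transcripts with a common identifier were summed, and a ratio is log2((treatment + 1)/(H2O + 1)), so that the ratios to H2O in both auxins fixed the list and are given below as a description without a test. FPKM counts sequenced fragments relative to transcript length and to all mapped fragments of the library. The plants were Rosa hybrida 'Samantha', a hybrid tea rose used as a cut flower, and RNA came from outer petals of flowers cut at stage 2 of opening. Stems stood for 24 h in 100 µM NAA, 100 µM 2,4-D, 5.0 µM brassinosteroid (BR), 100 µM of the cytokinin 6-BA, 100 µM abscisic acid (ABA), 80 µM gibberellic acid (GA3), 50 µM jasmonic acid (JA), 100 µM salicylic acid (SA) or 80 µM silver nitrate (AgNO3), with deionized water (H2O) as the control. Flowers of the gas treatments were held for 24 h in 2 µL per L of 1-methylcyclopropene (1-MCP) or in air (ET-CK). Each condition had 3 replicates of 4 pooled flowers, 39 samples in all. The table deposited under ethylene repeats the air values and was left out, so 12 conditions remain.

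Auxin is perceived by F-box receptors of the TIR1/AFB family, which on binding it mark the Aux/IAA repressors for degradation and so free auxin response factors to act on their targets. Work in Arabidopsis and other plants made Aux/IAA, GH3 and SAUR genes known as early targets, and in petals auxin is known for its part in growth and in the timing of abscission. NAA carries its acetic acid on a naphthalene ring, whereas 2,4-D carries an oxyacetic acid on a dichlorinated phenyl ring. The deposited identifiers are not paired with gene names, so whether any such target is among the 111 genes was not examined, and no role is given to any of them. For the same reason the petal label could not be checked against marker genes. In bulk RNA, fewer cells of a type and less RNA per cell cannot be told apart.

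The values used here are 1 average per condition and transcript, and the reads of the replicates were not analysed here. No value below therefore has a replicate error, no difference was tested, and the tables used give no depth behind a value. Between 13041 genes in ABA and 13845 genes in SA reached 1 FPKM in a condition. At least 2-fold higher expression than in H2O was found at 2.3% of 13853 genes tested in NAA and at 2.15% of 13724 genes in 2,4-D, where a gene was tested with at least 1 FPKM in either condition. Both held at 0.823% of 13492 genes, which are the 111 genes described here. Every member passes that filter by the rule itself, since a ratio of 2-fold on FPKM plus 1 needs at least 1 FPKM in the treatment.

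Most of the 111 genes were weakly expressed. Their level had a median of 4.58 FPKM in NAA and 4.04 FPKM in 2,4-D, against 0.825 FPKM in H2O. In H2O, 62 genes were under 1 FPKM. The 2 genes listed at 0 there were LOC112192637, with 1.92 FPKM in NAA and 3.05 FPKM in 2,4-D, and LOC112202483, with 1.56 FPKM in NAA and 2.25 FPKM in 2,4-D. The locus of LOC112192637 was deposited with 7 identifiers, and the division of reads between them was not tested. Only 20 genes reached 10 FPKM in either auxin. The log2 ratio to H2O had a median of 1.45 in NAA, with an upper quartile of 1.69, and a median of 1.35 in 2,4-D, with an upper quartile of 1.66.

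LOC112184652 stood apart from the rest by the size of its ratios, 4.80 in NAA and 6.32 in 2,4-D on the log2 scale. Its levels were 32.0 FPKM in NAA and 93.4 FPKM in 2,4-D, against 0.185 FPKM in H2O. It was also at 53.7 FPKM in JA and 17.8 FPKM in ABA, but at 0.557 FPKM in 6-BA, 0.199 FPKM in SA and listed at 0 in BR, GA3 and AgNO3. In solution the gene was thus high in both auxins, JA and ABA, and at or near 0 in the other conditions. In gas it was at 8.69 FPKM in 1-MCP and 12.6 FPKM in ET-CK. Its locus, NC_037089.1 from 59671218 to 59763525 on the genome build RchiOBHm-V2, was deposited with 5 identifiers. Another of them, LOC112190473, was at 151 FPKM in NAA and 257 FPKM in 2,4-D, against 176 FPKM in H2O. The other 3 were listed at 0 in every condition, and how reads were divided between these identifiers was not tested.

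Of the genes with at least 10 FPKM in an auxin, LOC112167489 came next. It was at 22.8 FPKM in NAA and 24.7 FPKM in 2,4-D, against 5.54 FPKM in H2O. LOC112192375 was at 18.5 FPKM in NAA and 15.5 FPKM in 2,4-D, against 3.90 FPKM in H2O. LOC112187313 followed with 11.8 FPKM in NAA and 9.55 FPKM in 2,4-D, against 2.31 FPKM in H2O. In all of these the auxin levels were exceeded in SA and AgNO3. LOC112167489 had 40.9 FPKM in SA and 39.3 FPKM in AgNO3, LOC112192375 had 36.0 and 41.7 FPKM, and LOC112187313 had 30.5 and 25.4 FPKM in the same order. LOC112192375 differed from the others in the gas conditions, where it stayed near its H2O level, with 4.03 FPKM in ET-CK.

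The most abundant gene of the list was LOC112172100, on NC_037093.1 from 64043167 to 64049933. It had 296 FPKM in NAA and 196 FPKM in 2,4-D, against 91.6 FPKM in H2O. Its level in the remaining solutions was 487 FPKM in SA, 516 in AgNO3, 314 in BR, 335 in GA3, 312 in JA, 98.9 in 6-BA and 81.9 in ABA. H2O, 6-BA and ABA were lowest at this gene, SA and AgNO3 highest, and NAA stood near BR, GA3 and JA with 2,4-D below them. In gas it was at 89.4 FPKM in 1-MCP and 108 FPKM in ET-CK, near its H2O level. LOC112191697, with 25.7 FPKM in NAA and 16.4 FPKM in 2,4-D against 7.29 FPKM in H2O, was also highest in SA, at 42.6 FPKM, and AgNO3, at 42.4, and low in 6-BA, at 8.41, and ABA, at 6.29. LOC112189719 was at 75.5 FPKM in NAA and 64.5 FPKM in 2,4-D, against 30.7 FPKM in H2O, and was highest in JA, at 158 FPKM, and BR, at 152 FPKM. Its locus was deposited with 10 identifiers. Of these, LOC112186659 and LOC112188030 were also highest in BR, at 560 and 175 FPKM, and JA, at 514 and 174 FPKM. Unlike LOC112189719, at 34.2 FPKM in GA3, they were high there too, at 451 and 153 FPKM. How reads were divided between these identifiers was not tested.

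Apart from the auxins, the 111 genes were measured in 7 treatments against the same H2O average, and in each of these the share of genes at least 2-fold higher can be set beside that of all genes tested. The same H2O value enters every ratio, so the counts are given for each treatment by itself. JA had 105 of the 111 genes at least 2-fold higher, SA 104, AgNO3 103, GA3 95 and BR 89. Among all genes tested the shares were 6.17% in JA, 7.7% in SA, 7.93% in AgNO3, 7.72% in GA3 and 8.7% in BR. In 6-BA 17 of the 111 genes were at least 2-fold higher, against 0.866% of all genes, and in ABA 14, against 3.24%. None of the 111 was at least 2-fold lower in BR, GA3, JA, SA or AgNO3, where 6.03%, 3.36%, 2.49%, 3% and 3.06% of all genes were, in that order. In 6-BA 1 gene was lower, LOC112176469, against 0.481% of all genes, and in ABA 3 were, LOC112187313, LOC112182111 and LOC112174497, against 1.9%. A 2-fold fall on FPKM plus 1 needs at least 1 FPKM in H2O, and 62 of the 111 genes were below that. Most of the list could therefore not be called lower in any treatment, so these counts of lower genes are a description. LOC112176469 was near 0 in 6-BA, against 1.53 FPKM in H2O, and at 22.8 FPKM in BR. Its locus was deposited with 10 identifiers, and the division of reads between them was not tested.

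The median log2 ratio of the 111 genes to H2O was larger in 5 other treatments than in either auxin. It was 2.196 in SA and 2.14 in AgNO3, followed by GA3 at 1.81, JA at 1.72 and BR at 1.70, and it was 0.31 in 6-BA and 0.09 in ABA. Over all genes tested these medians lay between -0.00 in 6-BA and 0.09 in AgNO3. The plot of ratios by treatment shows this order together with its scatter.

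**Figure D1:**
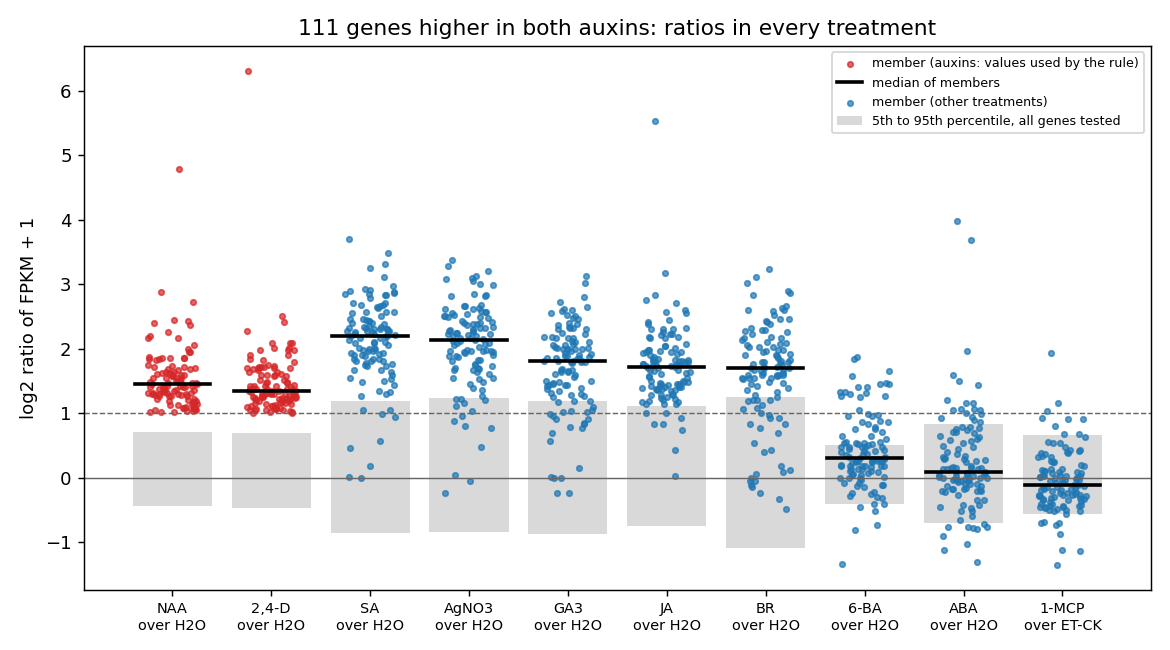
Each point is 1 of the 111 genes, with the log2 ratio of FPKM plus 1 on the vertical axis and the treatment with its control on the horizontal axis. Black bars are medians of the 111 genes, grey blocks span the 5th to the 95th percentile of all genes tested, and the dashed line marks 2-fold. Medians lie at 1.45 in NAA and 1.35 in 2,4-D, which the rule used, at 2.196 in SA and 2.14 in AgNO3, and at -0.12 in 1-MCP over ET-CK.

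All 111 genes were at least 2-fold above H2O in at least 2 of the 7 other treatments in solution. Exactly 5 other treatments were passed by 72 genes, 4 by 16 genes, 6 by 8 genes, 2 by 6 genes, 3 by 5 genes and all 7 by 4 genes. Of the 15023 genes with at least 1 FPKM in any condition in solution, 9.43% passed in at least 2 of the 7 treatments and 2.23% in at least 5, where 84 of the 111 did. All of these ratios share the H2O average that the rule used, so the numbers are a description. The heat map of levels groups the genes by these numbers.

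**Figure D2:**
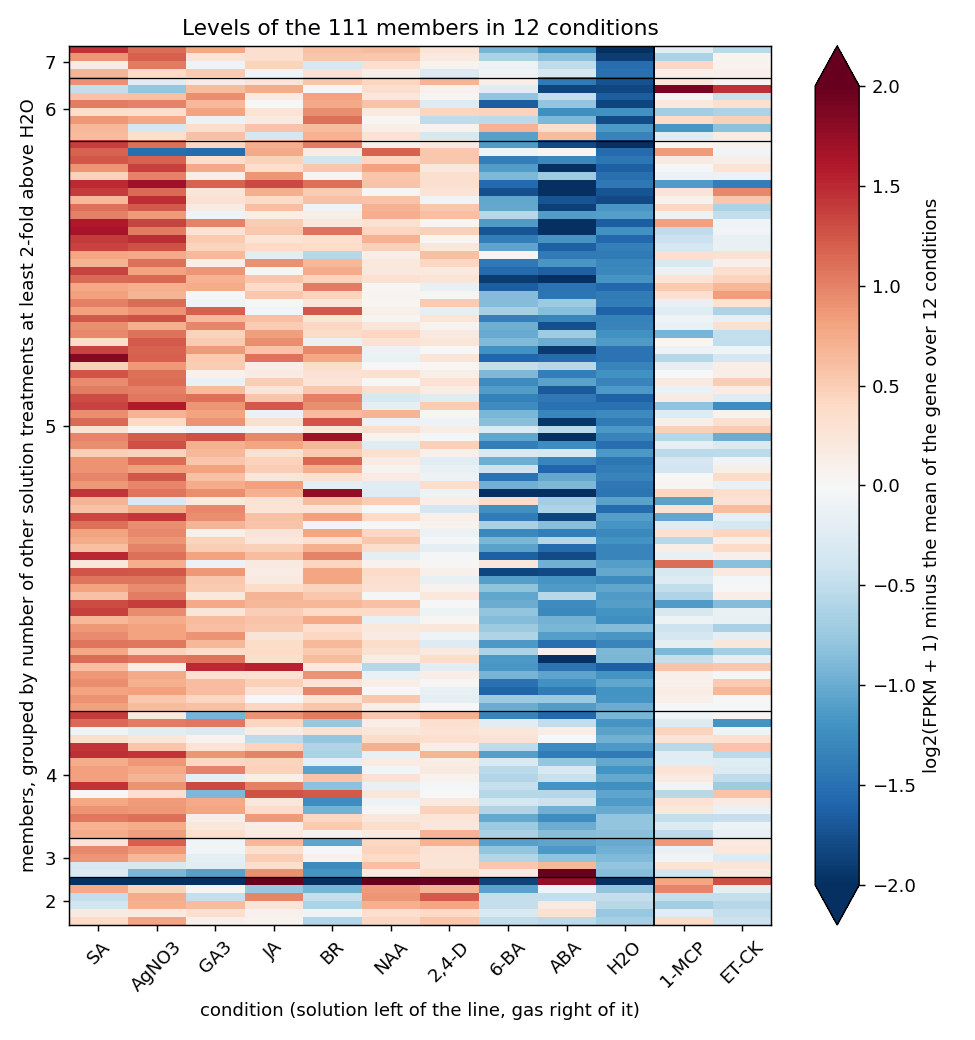
Rows are the 111 genes, grouped by how many of the 7 other treatments in solution were at least 2-fold above H2O, and columns are the 12 conditions. Colour gives log2(FPKM + 1) minus the mean of the gene over the 12 conditions, from blue for low to red for high. Columns H2O, 6-BA and ABA are blue in most rows, SA and AgNO3 are red, and NAA and 2,4-D lie between them, with 72 genes in the group of 5 treatments.

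LOC112201007 passed in BR, GA3, JA, SA and AgNO3 only. It was at 11.7 FPKM in NAA and 12.9 FPKM in 2,4-D, against 3.95 FPKM in H2O. Its levels in those treatments lay between 19.4 FPKM in JA and 34.3 FPKM in SA, while 6-BA had 4.94 and ABA 2.67 FPKM. Both auxins thus stood between the 5 treatments and the 3 low conditions. LOC112165369, LOC112192874, LOC112170057, LOC112179123, LOC112170066, LOC112187595, LOC112186201 and LOC112181816 passed in the same 5 treatments only. Their lower auxin ratio lay between 1.07 for LOC112187595 and 1.37 for LOC112186201. Among them LOC112165369 was highest in BR, at 38.6 FPKM, with 10.9 FPKM in 2,4-D. LOC112179123 was highest in SA, at 32.3 FPKM, and LOC112186201 in AgNO3, at 34.8 FPKM.

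The 4 genes that passed in all 7 other treatments were LOC112186922, LOC112180024, LOC112186082 and LOC112173809, named after their values were seen. LOC112186922 was at 6.97 FPKM in NAA and 5.18 FPKM in 2,4-D, and between 1.23 FPKM in ABA and 13.1 FPKM in SA elsewhere in solution, against 0.0803 FPKM in H2O. LOC112173809 was at 9.97 FPKM in NAA and 7.33 FPKM in 2,4-D, and between 7.02 FPKM in ABA and 15.2 FPKM in SA, against 2.58 FPKM in H2O. By this choice and the rule, H2O had to be the lowest of the conditions in solution at all 4 genes.

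Other named genes passed in other sets of treatments or were highest elsewhere. LOC112199922 was at 17.9 FPKM in NAA and 17.5 FPKM in 2,4-D, against 6.55 FPKM in H2O. SA, at 17.6 FPKM, and AgNO3, at 16.4, were close to the auxins, as was 6-BA with a log2 ratio to H2O of 1.25, while ABA was at 13.5 FPKM, JA at 9.15 and BR at 7.60. LOC112173019 was at 15.6 FPKM in 2,4-D, against 7.07 FPKM in H2O, and reached 21.0 FPKM in ABA and 19.1 in 6-BA but 4.76 in BR. LOC112198158 lay between 3.28 FPKM in GA3 and 5.49 FPKM in BR over all treatments in solution, with 5.11 in NAA and 5.31 in 2,4-D, against 1.48 FPKM in H2O. In LOC112173019 and LOC112198158 the auxins were above both SA and AgNO3. LOC112196865 was highest in 6-BA, at 8.14 FPKM, with 5.19 in NAA and 4.94 in 2,4-D, against 1.56 in H2O. LOC112185980 was at 20.3 FPKM in NAA and 25.1 FPKM in 2,4-D, against 9.38 FPKM in H2O, and at 8.63 FPKM in BR. LOC112198732, named after its values were seen, had its highest level in ABA, at 18.9 FPKM, with 2.19 in NAA and 2.63 in 2,4-D, against 0.549 in H2O.

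The genes closest to an auxin pattern were sought by the lower of the auxin levels over the highest of the 8 other conditions in solution. At a single gene, LOC112165787, both auxins exceeded every other condition in solution, by 0.000786 on the log2 scale at the lower auxin. It was at 1.67 FPKM in NAA and 1.84 FPKM in 2,4-D, while AgNO3 had 1.67, GA3 1.54 and H2O 0.111 FPKM. Of its 5 transcripts, the one with 1.61 FPKM of the AgNO3 level had 0.610 FPKM in NAA and 0.962 in 2,4-D. Another, with 1.48 FPKM of the GA3 level, had 0.729 FPKM in NAA but 0.00823 in 2,4-D. A further transcript had 0.838 FPKM in 2,4-D but 0.0332 in NAA, so the auxin sums rested in part on different transcripts. Over the 111 genes the median of this measure was -1.01. Among genes with at least 5 FPKM in an auxin, LOC112199922, LOC112173214, LOC112189636 and LOC112198158 came nearest to 0, at -0.01, -0.01, -0.07 and -0.09, and LOC112172292 was also among the first 8. LOC112173214 was at 6.72 FPKM in NAA and 7.08 in 2,4-D, with 6.79 in GA3 and 6.62 in ABA, against 2.63 FPKM in H2O. Its locus was deposited with 8 identifiers, and the division of reads between them was not tested. LOC112189636 was at 7.76 FPKM in NAA and 6.81 in 2,4-D, with 7.18 in SA and 5.62 in AgNO3, against 1.82 FPKM in H2O. JA, BR and 6-BA were at or near the H2O level there, at 1.88, 1.56 and 1.31 FPKM. In the whole series no gene had both auxins at least 0.5 on the log2 scale above every other condition in solution, and the largest value was 0.27. Against the median of the 7 other treatments in place of H2O, NAA was at least 2-fold higher at 3 of the 111 genes and 2,4-D at 2, where 0.7% and 0.425% of all genes tested were. At least 2-fold lower were 5 of the 111 in NAA and 4 in 2,4-D, against 1.24% and 0.858% of all genes.

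Over 6-BA, a condition that the rule did not use, SA was at least 2-fold higher at 89 of the 111 genes, against 7.66% of all genes tested, and AgNO3 at 93, against 7.75%. GA3 was higher at 74 genes, JA at 71 and BR at 69, against 7.18%, 5.69% and 8.84% of all genes in the same order. The median log2 ratio to 6-BA was highest in SA, at 1.77, and AgNO3, at 1.70, and lay between 1.32 in BR and 1.41 in JA for the other 3. Over ABA, SA was at least 2-fold higher at 94 genes, against 11.8% of all genes, and AgNO3 also at 94, against 11%. SA and AgNO3 were thus above the low conditions also where H2O was not the control, and these comparisons share their 6-BA or ABA average in turn. H2O and ABA were close to 6-BA at these genes, with medians of -0.31 and -0.20. Both had more genes below 6-BA by 2-fold than above, 17 against 1 in H2O and 11 against 4 in ABA, but the rule chose genes with a low H2O value, so the count for H2O is a description. Over all genes tested 0.866% were lower and 0.481% higher in H2O, and 1.53% were lower and 2.45% higher in ABA.

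**Figure D3:**
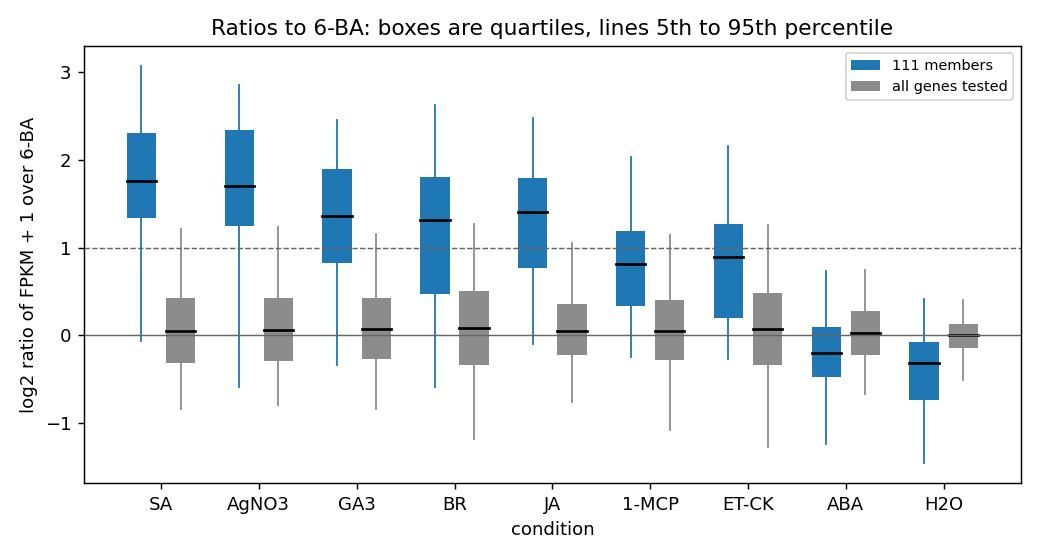
The log2 ratio of FPKM plus 1 over 6-BA is on the vertical axis and the condition on the horizontal axis, with the 111 genes in blue and all genes tested in grey. Boxes are quartiles with the median as a black line, thin lines span the 5th to the 95th percentile, and the dashed line marks 2-fold. The medians of the 111 genes are 1.77 in SA and 1.70 in AgNO3, 0.81 in 1-MCP and 0.89 in ET-CK, and -0.20 in ABA and -0.31 in H2O.

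The auxin averages themselves were above 6-BA at 106 of the 111 genes in NAA and at 105 in 2,4-D, against 55.7% and 56.5% of the 15023 genes in solution. At least 2-fold over 6-BA were 68 genes in NAA and 55 in 2,4-D, where 2.99% and 1.69% of all genes tested were. The auxin and H2O values here are those that chose the genes, so these counts and the next are a description. H2O, 6-BA and ABA all lay below both auxins at 102 genes, against 18.8% of the 15023, and below the auxins, BR, GA3, JA, SA and AgNO3 at 81 genes, against 14.7%. NAA was below SA at 94 genes and below AgNO3 at 94, against 51.4% and 52.5% of the 15023. 2,4-D was below SA at 100 genes and below AgNO3 at 94, against 54.8% and 56.7%. Of the 10 conditions in solution, the highest level was in SA at 43 genes and in AgNO3 at 36, against 11.6% and 9.93% of the 15023. BR was highest at 13 genes, GA3 at 5, NAA at 4, 2,4-D at 4, JA at 3, ABA at 2 and 6-BA at 1. The lowest level was in H2O at 57 genes and in ABA at 38, against 10.4% and 24.1%, and otherwise in 6-BA at 11 and BR at 5. For the counts given without a share, the share over all genes was not taken, so they cannot be set against other genes.

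The 2 auxins were given at the same dose for the same time and their averages are set side by side here. Because the rule asks for a high value in both, the comparison is a description. The log2 ratio of 2,4-D over NAA had a median of -0.12 with quartiles of -0.28 and 0.17, and 90 of the 111 genes were within 0.5 of equality. NAA was higher at 66 genes and 2,4-D at 45. Beyond 0.5 on the log2 scale, 16 genes were higher in NAA and 5 in 2,4-D. Over all genes tested the median was -0.03, also on the side of NAA. These counts were not taken over all genes, so they do not set the 111 genes apart. LOC112184652 was the only gene at least 2-fold apart on FPKM plus 1, at 1.52, where 1.37% of all genes tested were higher in 2,4-D and 1.01% lower. Next in the direction of 2,4-D was LOC112174080, with 5.97 FPKM in 2,4-D against 2.93 in NAA, and the largest difference towards NAA was at LOC112192184, with 3.80 FPKM in 2,4-D against 7.51 in NAA. With 1 average per compound no interval can be given for these differences, so neither a difference in response between the compounds nor its absence is shown.

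**Figure D4:**
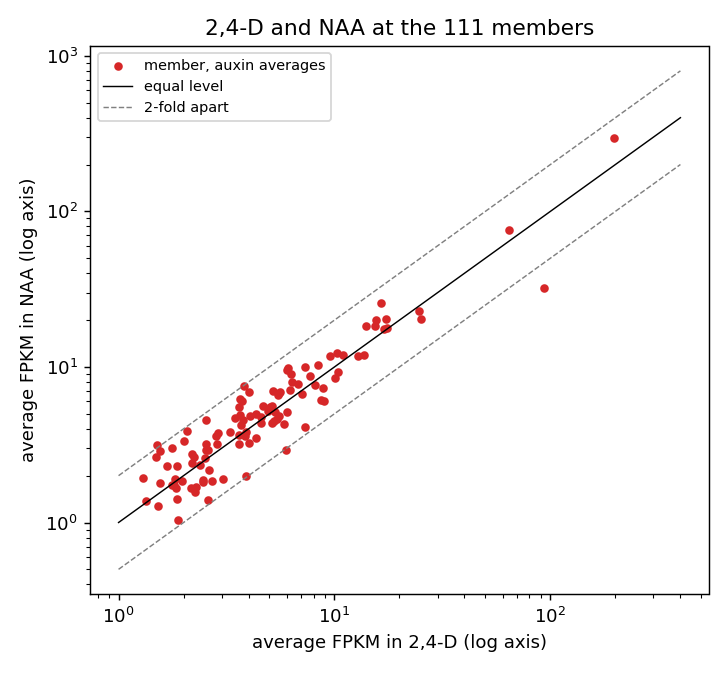
Average FPKM in 2,4-D is on the horizontal axis and in NAA on the vertical axis, both logarithmic, with 1 point for each of the 111 genes. The solid line marks equal levels and dashed lines mark 2-fold without the added 1. LOC112184652, at 93.4 FPKM in 2,4-D and 32.0 in NAA, lies farthest from the solid line, and LOC112172100, at 196 and 296 FPKM in the same order, is the most abundant gene.

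In flowers held in gas 105 of the 111 genes were above their H2O level in both 1-MCP and ET-CK, against 47.6% of the 14416 genes with at least 1 FPKM in any of the 3. ET-CK was at least 2-fold above H2O at 74 genes, against 7.99% of all genes tested, and both counts use the H2O average that the rule used. Over 6-BA, without H2O, 1-MCP was at least 2-fold higher at 37 genes and ET-CK at 49, against 6.93% and 8.54% of all genes. 1-MCP blocks ethylene receptors, and the median log2 ratio of 1-MCP over ET-CK was -0.12 for the 111 genes and -0.01 over all genes tested. At least 2-fold higher in 1-MCP were 3 genes, against 1.73% of all genes, and 3 were lower, against 1.23%, shares of 2.7% each. The higher genes were LOC112198408, with 6.41 FPKM in 1-MCP against 0.931 in ET-CK, LOC112189636, with 8.57 against 3.31, and LOC112169732, with 3.86 against 1.36. The lower ones were LOC112189719, with 43.7 FPKM in 1-MCP against 96.6 in ET-CK, LOC112200711, with 3.36 against 8.56, and LOC112172345, with 8.46e-05 against 1.56. Whether the ET-CK values come from air or ethylene flowers cannot be told apart.

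The loci of the 111 genes were long. The span between the deposited start and end had a median of 8071 bases, against 3814 bases over the 15197 other genes of at least 1 FPKM in any condition. A locus shared by several identifiers spans all of them, and 22 of the 111 genes lie on such loci. The division of reads between the identifiers of a shared locus was not tested for any of them. Among the 89 genes on a locus of their own the median was 6593 bases, with quartiles of 5018 and 10505. For 6265 other genes on loci of their own with a mean FPKM between the 5th and the 95th percentile of the 111 genes, the median was 3653 bases, with quartiles of 2403 and 5433. Spans of 10000 bases or more were found at 29.2% of the 89 genes and at 5.33% of the 6265 genes. A locus holds introns as well as exons, and the files do not separate them.

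**Figure D5:**
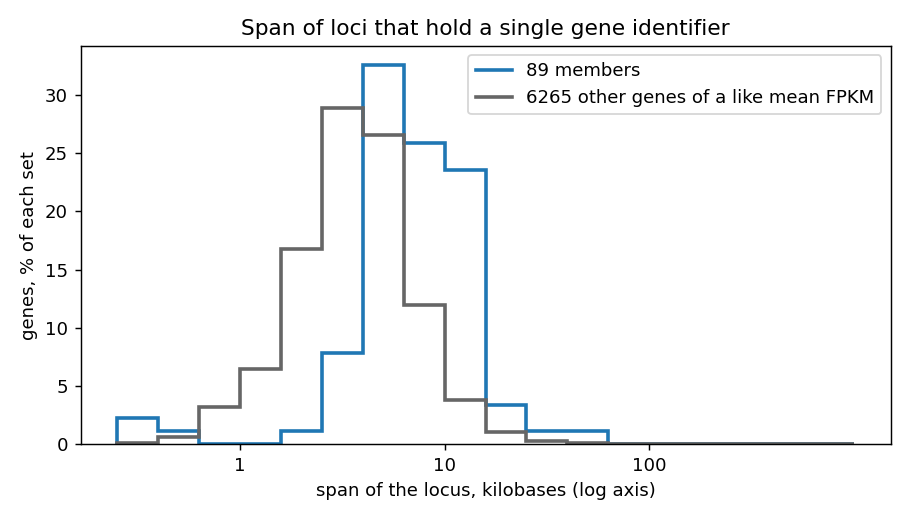
The span of the locus is on the horizontal axis in kilobases on a log scale, and the vertical axis gives the percent of each set of genes. The blue line holds the 89 genes on loci with a single identifier and the grey line 6265 other genes of a like mean FPKM. The medians are 6593 and 3653 bases in the same order, and most of the blue line lies to the right of the grey one, apart from a few short loci at its left end.

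Long loci were not found in every set of genes above H2O. On loci with a single identifier, genes at least 2-fold higher in NAA but not on the list had a median span of 5897 bases (n = 164), and those higher in 2,4-D but not on the list had 1964 bases (n = 135). Outside the list the medians were 4898 bases for SA, 4463 for AgNO3, 4122 for BR, 3994 for GA3, 3060 for JA, 1866 for ABA and 1567 for 6-BA. Genes at least 2-fold higher in 2,4-D but not on the list thus had shorter loci than both the 89 genes of the list and those of NAA. These sets also differed in level. The median of the mean FPKM was 14.1 for 2,4-D, 14.7 for 6-BA and 10.1 for ABA, against 4.55 for NAA and 3.84 for the 89 genes. Whether span goes with level was not tested. No test of these medians was made, and the sets of different treatments share genes.

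Genes of the list were counted by chromosome. NC_037093.1 held 22 genes, NC_037089.1 20, NC_037091.1 18, NC_037092.1 17, NC_037088.1 15, NC_037090.1 10 and NC_037094.1 9. No loci of the list overlapped, and 4 neighbouring pairs lay within 100000 bases of each other, LOC112172403 and LOC112172100 being the closest at 37213 bases. Neither the counts by chromosome nor those of pairs were taken over all genes, so they cannot be set against other genes. A single transcript was deposited for 82 genes and several for 29, which is 26.1% of the list and 22.1% of the other genes of at least 1 FPKM. In 22 of these 29 genes exactly 1 transcript was at least 2-fold higher in both auxins on its own. In the other 7 only the sum passed, and in none was a transcript at least 2-fold lower in both auxins. A transcript under 1 FPKM in H2O cannot be called lower on FPKM plus 1. These counts of transcripts were not taken over other genes, so they are a description.

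The genes just inside the threshold were LOC112164544, LOC112166717 and LOC112193395, with a lower auxin ratio of 1.00, 1.01 and 1.02. LOC112164544 was at 3.21 FPKM in NAA and 2.86 FPKM in 2,4-D, against 0.929 FPKM in H2O. Just outside, LOC112200779 was at 46.3 FPKM in NAA and 43.9 FPKM in 2,4-D, against 21.5 FPKM in H2O, and LOC112191836 at 2.84 and 2.62 FPKM, against 0.815 FPKM in H2O. LOC112186334, also just outside, was at 2.91 FPKM in NAA and 3.40 FPKM in 2,4-D, against 0.961 FPKM in H2O.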

How the data were processed

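Petal RNA of 39 samples was sequenced in paired ends. The authors mapped the clean reads to RchiOBHm-V2 with TopHat2 2.1.1, assembled transcripts with Cufflinks 2.2.0 and Cuffmerge, and deposited 1 average FPKM per transcript and condition from Cuffdiff. The normalization between conditions was not given in the sources used here. FPKM of 38170 transcripts were summed to 30208 identifiers, of which 9 join 2 neighbouring genes and none of these is on the list. Ratios are log2 of FPKM plus 1, and they understate the change of low genes. Counts over all genes took those reaching 1 FPKM in at least 1 of both conditions. The selection step was checked on simulated data, but the expression levels and noise simulated are not given here. No conclusion is therefore drawn from that check for weakly expressed genes, such as the 62 of the list under 1 FPKM in H2O. No statistical test of a difference was made, because reads of the replicates were not analysed here. The ethylene table, identical to that of air, was left out. Named genes were the 15 with the largest lower auxin ratio of at least 10 FPKM, the 8 nearest to or above the highest other condition at 5 FPKM or more, the 5 most abundant, those 2-fold apart between the auxins at 10 FPKM, and 3 on either side of the threshold. Genes singled out for 1-MCP, for a 0 in H2O, for all 7 other treatments, for a lower level in 6-BA or ABA and for the extremes between the auxins, as well as LOC112165787 and LOC112198732, were chosen outside this rule after their values were seen. The members, lists and rules were chosen with earlier results of these data known. Lists of auxin and other pathway genes and of tissue markers rest on gene names and were not matched to the identifiers. Alternatives were a pseudocount of 0.1, a minimum of 5 FPKM or none, a threshold of 0.5, median scaling, transcripts without summing and other controls. Python 3.11.15, numpy 2.4.6, pandas 2.3.3 and matplotlib 3.10.9 were used.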

Additional observations from a re-analysis of the deposited data

How the results depend on the processing

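No paired analysis was possible because each condition enters as 1 average and the reads of its replicates were not analysed here, and leaving out replicates was not run for the same reason. The list of 111 genes was unchanged without a minimum, which was fixed in advance, since every member passes that filter by the rule itself. It had 106 genes with median scaling and 146 with 6-BA in place of H2O, of which 48 are among the 111. On loci with a single identifier it had 89 genes, a setting chosen after seeing the data. Median scaling moved all ratios to H2O by -0.12 in GA3, -0.11 in AgNO3, -0.10 in JA and by less elsewhere. With the median of the 7 other treatments in place of H2O the list had 17 genes, of which 2 are among the 111. It had 262 genes with a pseudocount of 0.1, 41 with a minimum of 5 FPKM, 510 at a log2 ratio of at least 0.5 and 192 transcripts without summing. In the same order of settings, genes higher in NAA, 318 as given, were 657, 159, 1373 and 520, and those higher in 2,4-D, 295 as given, were 598, 180, 1225 and 466. Genes of the list apart between 2,4-D and NAA, 1 as given, were 8 with the pseudocount of 0.1, 111 of 510 at 0.5 and 2 as transcripts. Over lists chosen anew, the share higher in BR, GA3, JA, SA and AgNO3 stayed within 1.5 times of that given. It was not taken over the lists of 146, 89 and 17 genes. Shares this high could move by 1.5 times only downwards. With 6-BA or ABA in place of H2O, chosen after seeing the data, only the 111 genes were used, and each share was lower. Over 6-BA it fell to 64% in JA, 66.7% in GA3 and 62.2% in BR, against 94.6%, 85.6% and 80.2%. The share in SA became 80.2%, against 93.7%, and that in AgNO3 83.8%, against 92.8%. Over ABA the shares lay between 64.9% in BR and 84.7% in SA and AgNO3. The share of the list moved in 6-BA to 25.2% with the pseudocount of 0.1 and to 29.4% at 0.5, against 15.3%, in ABA to 22.1% and 26.5%, against 12.6%, and in 1-MCP to 4.96% and 12.4%, against 2.7%. The cause was not tested beyond the construction of each setting, and the tables used give no depth.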
